A study of Mus musculus with 8 samples.

Results

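The genes described here encode the proteins of the cytosolic ribosome, measured by droplet single-cell RNA sequencing (10x Chromium) of mouse hippocampus. Members were all rows of the count table with a gene symbol made of Rpl or Rps, a number and at most a short suffix, together with Rplp0, Rplp1, Rplp2 and Rpsa, and without the Rps6k kinases. This rule, which used no measured value, found 83 of 17143 genes (0.484%). They comprised 43 genes of the large (60S) subunit, 3 genes of its stalk, 31 genes of the small (40S) subunit and 6 like-named paralogs (Rpl3l, Rpl6l, Rpl7l1, Rpl22l1, Rpl39l and Rps27l).

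Ribosomal proteins are assembled with ribosomal RNA into the 2 subunits that translate messenger RNA: the 40S subunit decodes the message and the 60S subunit forms the peptide bond. Most of their messages begin with a cytosine followed by a run of pyrimidines, the 5′ terminal oligopyrimidine (TOP) motif, through which mTORC1 and the RNA-binding protein LARP1 control their translation together. Paralogs can take the place of the usual protein in particular tissues, as Rpl3l takes that of Rpl3 in striated muscle.

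The 8 mice, all wildtype (a/a) and sacrificed at 5 months, were offspring of a/a parents. In the Pb group (2 females, F1 and F2, and 2 males, M1 and M2) the dams were given 32 ppm Pb-acetate in their drinking water, starting 2 weeks ahead of mating and ending at weaning, so that exposure reached the offspring only before weaning. The Ctl group (also 2 females and 2 males) came from control dams, and the offspring kept after weaning drank Pb-free water. Litters gave a male and a female each, and the labels do not tie mice to litters, so that p-values below treat as independent some mice that may share a dam. The hippocampi were perfused with saline, dissociated with enzymes and heat, and the cells frozen and thawed before capture.

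The table held 5258 cells, of which 5175 were kept, with 211 to 1157 cells and 1749079 to 8508064 unique molecular identifiers (UMIs, each counting 1 captured molecule) per mouse. Clustering, in which no member was used, gave 23 clusters, named from marker genes as "-like" classes. Cluster 0, led by hemoglobin genes and Slc38a5, and cluster 4, led by Anln, Spock3 and Hapln2 and with all 12 oligodendrocyte markers detected, stayed unnamed. The best match of cluster 0 was named endothelial-like with doublets kept (741 shared cells) and with members used for clustering (724 shared cells). It stayed unnamed with a mitochondrial limit of 10% (754) and at a clustering resolution of 0.5 (783). Of the oligodendrocyte-like cells of Ctl M2, 92.1% formed a cluster of their own (cluster 15), and cluster 4 held under 10 of its cells. A total of 32 cell barcodes occurred in more than 1 library (91 cells), and leaving these cells out changed no call below.

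Transcript starts of members the results turn on are shown, since a TOP motif is a feature of the first bases of a message. Each stretch is the coding strand of RefSeq on GRCm38.p6, from 12 bases before the annotated start site through the 18 bases from it on, 5′ to 3′, with the longest run of C and T in capitals. The marked run includes the start site in Rplp2, Rps6 and Rps27. It lies after the start site in Rpl22l1 and Rplp0, and before it in Rpl13, Rpl41 and Rpl6. A marked run is therefore not by itself a TOP motif. RefSeq windows were found for 62 of the 83 members.
Rplp2, a stalk protein that binds elongation factors (chr7:141447639-141447668, + strand): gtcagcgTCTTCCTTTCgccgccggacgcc
Rps6, the 40S protein phosphorylated by S6 kinase (chr4:86857350-86857379, - strand): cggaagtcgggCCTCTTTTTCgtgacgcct
Rps27, a 40S protein (chr3:90213631-90213660, - strand): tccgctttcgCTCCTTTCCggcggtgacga
Rpl22l1, the paralog of Rpl22 (chr3:28805496-28805525, + strand): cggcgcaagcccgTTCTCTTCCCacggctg
Rplp0, the base of the stalk (chr5:115559455-115559484, + strand): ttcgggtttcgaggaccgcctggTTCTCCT
Rpl13, a 60S protein (chr8:123102338-123102367, + strand): CCTTTCgcctgattttgattggcgtttgag
Rpl41, the smallest 60S protein (chr10:128549151-128549180, - strand): acgggccggCTCggaagtgacgacaccgag
Rpl6, a 60S protein (chr5:121204489-121204518, + strand): tcaCCTCCCgtcattgcttatagaccggaa

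In a window of 20 bases on either side of the start site, 30 of 62 members (48.4%) had a pyrimidine run of 8 or more on the coding strand, against 2408 of 12253 genes of the table (19.7%). The longest run had a median of 7 bases in the members and 5 in all genes. The motif CTTTCC was found in 11 members (17.7%) on the coding strand and in 0 on the other strand, against 2.29% and 2.06% of all genes. CTCTTTCC, which contains CTTTCC, was found in 3 members (4.84%, against 0.22%). TATAAA in the 40 bases before the start was found in 1 member (1.61%, against 1.92%). Rplp2, Rps6, Rps27 and Rpl22l1 above have runs of 9 or 10 bases, whereas Rpl41 has a longest run of 3 in the stretch shown. A match of letters is a description and not a measured start site.

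Members gave 3524139 of the 37236337 UMIs of the kept cells (9.46%). Their share was lowest in astrocyte-like cells, at 4.88% ± 0.50 (SD, n = 6 mice), and had its highest mean in perivascular macrophage-like cells, at 15.8% ± 2.2 (n = 2, both Pb mice). In Pb F1, which held both classes, the macrophages had 14.2% and the Cajal-Retzius-like cells 14.5%. Between these lay a low group with the oligodendrocyte-like cells (6.28% ± 0.25, n = 8), cluster 4 (6.25% ± 0.26, n = 7), the oligodendrocyte precursor-like cells (6.69% ± 0.34, n = 5) and the choroid plexus-like cells (6.84% ± 0.35, n = 3). Vascular cells were intermediate, at 9.30% ± 0.32 in pericyte-like (n = 8), 9.63% ± 0.49 in smooth muscle-like (n = 7) and 9.98% ± 0.31 in endothelial-like cells (n = 8). Cluster 0 had 11.0% ± 0.36 (n = 8). Microglia-like cells had 12.9% ± 1.4 (n = 8) and Cajal-Retzius-like cells, early-born neurons that make reelin, 13.7% ± 0.86 (n = 6).

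**Figure D1:**
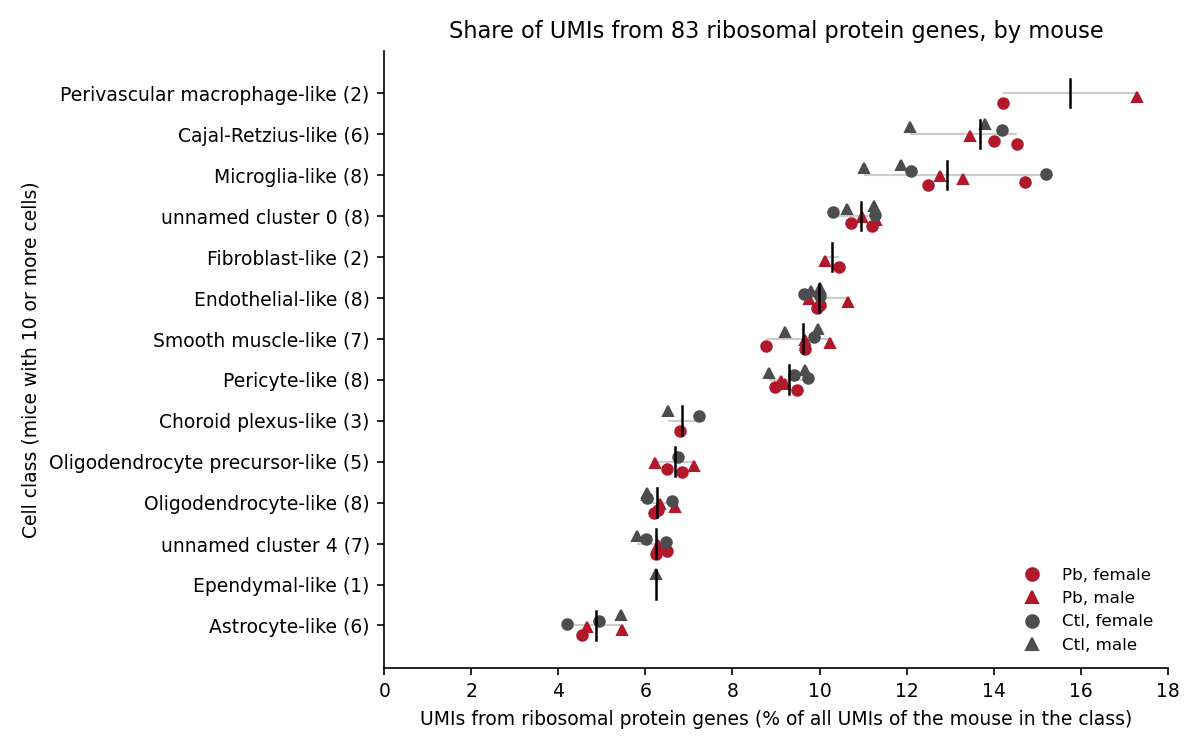
UMIs from ribosomal protein genes as a percentage of all UMIs of a mouse in a cell class (x axis), for each class (y axis, with the number of mice with 10 or more cells); each point is a mouse, with colour for exposure and shape for sex, and the bar is the mean. The 6 astrocyte-like values, from 4.202 to 5.458%, lie below those of every other class, and Pb and Ctl points overlap in each class tested between the groups.

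The astrocyte range (4.202 to 5.458%) met no other class. Cluster 4, the oligodendrocyte-like and the precursor-like cells overlapped, as did the pericyte-like, smooth muscle-like and endothelial-like cells, and the microglia-like range (11.0 to 15.2%) overlapped those of cluster 0, the Cajal-Retzius-like cells and the macrophages. The order did not follow depth: median UMIs per cell were 3059 in astrocyte-like, 5221 in microglia-like, 6397 in oligodendrocyte-like and 20738 in choroid plexus-like cells. A share of this kind also moves with every other gene of the class, so that fewer ribosomal protein transcripts and more of other transcripts cannot be told apart.

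Of the 83 members, 81 reached 50 CPM (UMIs of the gene scaled to a total of 1000000 UMIs for the class in the mouse) in at least 1 of 13 classes. The others were Rpl3l and Rpl39l, with under 1000 UMIs in all cells together. Of these 81 members, 62 had their lowest mean level in astrocyte-like cells, 51 their highest in the macrophages and 22 in Cajal-Retzius-like cells. The range over classes had a median of 1.79 on the log2 CPM scale (pseudocount 1 CPM), exceeded 2 for 25 members and was below 1.5 for 18. Rpl7l1 (0.89), Rpl28 (1.06), Rpl31 (1.09), Rps15 (1.16) and Rpl7a (1.21) had the smallest ranges. Rpl6l (2.95), Rpl10 (2.92), Rpl3 (2.82), Rplp0 (2.68) and Rpl22l1 (2.65) had the largest. These are levels of the same gene in different classes, since 3′ UMI counts give no scale per length on which to rank genes.

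Rpl10, which joins the 60S subunit late and lies near the site of peptide bond formation, had a level of 357 CPM ± 96 in astrocyte-like cells (n = 6) against 2537 ± 230 in microglia-like cells (n = 8). Rplp0 had 324 ± 66 CPM in astrocyte-like cells and 2085 ± 187 in the macrophages (n = 2), with 1470 ± 156 in microglia-like cells. The other stalk proteins had narrower ranges: Rplp1 was lowest in cluster 4 (924 ± 158 CPM) and Rplp2 in astrocyte-like cells (681 ± 72), and both were highest in the macrophages (2957 ± 558 and 2501 ± 634). Rps6 went from 497 ± 93 CPM in astrocyte-like to 2169 ± 147 in Cajal-Retzius-like cells. Rpsa, the laminin receptor precursor of the 40S subunit, was lowest in choroid plexus-like cells (416 ± 39 CPM, n = 3).

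Since the whole family differs between classes, each gene was also expressed as its part of the members' UMIs. Rpl13 departed most. In oligodendrocyte precursor-like cells it made up 6.43% of the members' UMIs (mean of 5 mice), 2.81 times the next class (2.29%, Cajal-Retzius-like). Its level there was 4301 ± 521 CPM (3443 to 4765, n = 5), above every mouse of every other class, where class means lay between 803 CPM in astrocyte-like and 3126 CPM in Cajal-Retzius-like cells. Counted by cluster, 5983 of 93289 member UMIs in the precursor-like cluster came from Rpl13 (6.41%, 95% Wilson interval 6.26 to 6.57%, which covers counting error only). In the other 22 clusters the part was 1.41 to 2.22%, including 1.90% (1.68 to 2.15%) in the 25 committed oligodendrocyte precursor-like cells and 2.07% in the main oligodendrocyte-like cluster.

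The high part of Rpl13 was seen in each of the 6 mice with 8 or more precursor-like cells: the Pb mice F1, F2, M1 and M2 had 6.57, 5.30, 6.69 and 6.76%, Ctl F2 had 6.80% and Ctl M2 had 4.38%. The other two, Ctl F1 with 4 cells (7.84%) and Ctl M1 with 2 cells (3.84%, 13 UMIs), were also above the 2.22% of the highest other cluster. At least 1 Rpl13 UMI was found in 96.2% of the precursor-like cells, with a median of 36 per cell against 2 to 25 in the other clusters. The gene lies at chr8:123102350-123105244 (+ strand) on GRCm38. Other gene models that may overlap it were not examined, and the table cannot tell its UMIs from theirs if they were assigned to it. The classes came from clustering these same cells, though without the members, and no test is given.

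**Figure D2:**
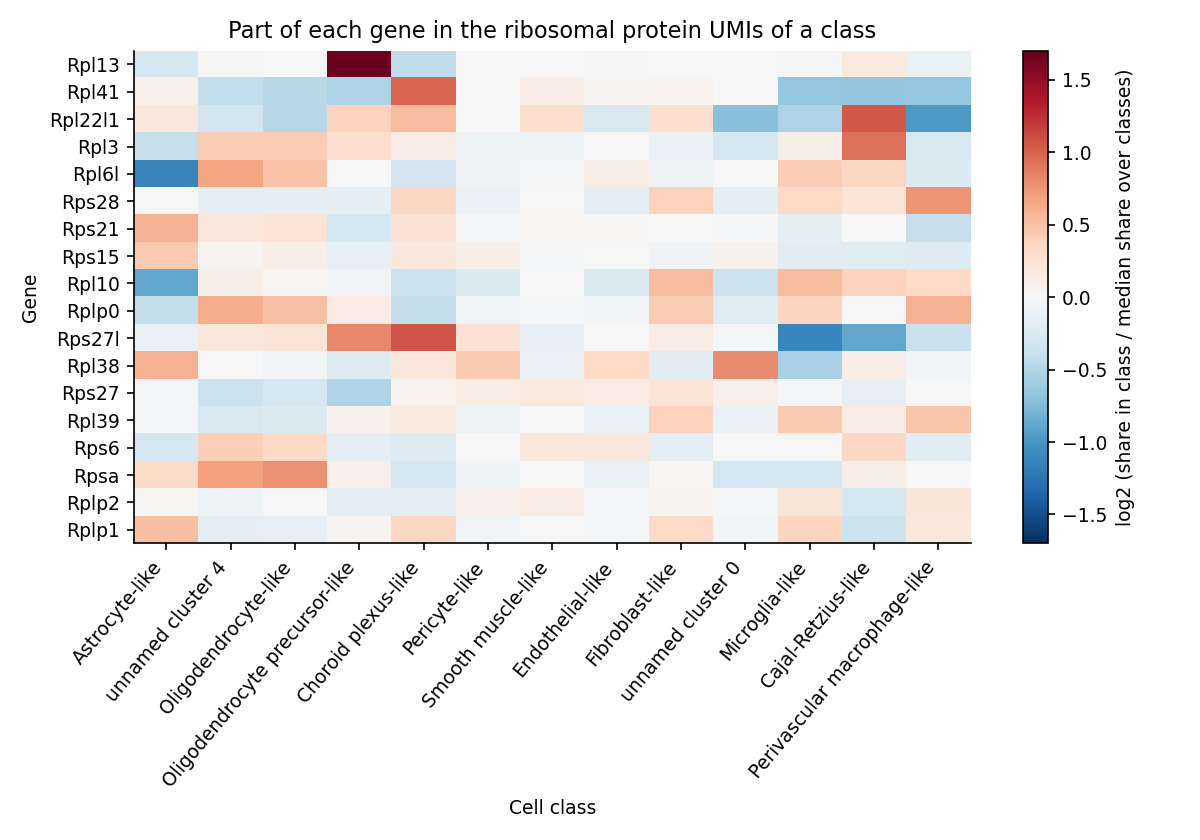
Part of each gene in the ribosomal protein UMIs of a class, as log2 of its share over the median share of the 13 classes (colour), for 18 genes (rows) and the classes in order of total share (columns). Rpl13 has its largest share in oligodendrocyte precursor-like cells, Rpl41 and Rps27l in choroid plexus-like and Rpl22l1 and Rpl3 in Cajal-Retzius-like cells. Shares below the median are coloured on the same scale: that of Rpl6l goes from 0.624% in cluster 4 down to 0.180% in its lowest class.

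Rpl41 had the next largest departure, 6.89% of the members' UMIs in choroid plexus-like cells against 3.80% in the next class (smooth muscle-like). Its level there was 4575 to 4843 CPM in 3 mice, with 3837 ± 183 in cluster 0 and 1582 ± 42 in oligodendrocyte-like cells. Cajal-Retzius-like cells stood out for Rpl22l1 and Rpl3. Rpl22l1 had 1043 to 1493 CPM there (mean 1255 ± 154, n = 6), above every mouse of every other class, where class means were 199 to 545 CPM, and its partner Rpl22 had 370 ± 66 in the same cells against 589 ± 72 in microglia-like cells and 863 ± 20 in the macrophages. Rpl3, at the peptidyl transferase centre, had 2152 to 2947 CPM in Cajal-Retzius-like cells and 1137 to 1449 in microglia-like cells, so that these ranges did not overlap.

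Other departures were smaller. Rps27l, the paralog of Rps27 that p53 is known to induce, had 339 ± 31 CPM in choroid plexus-like cells and 141 ± 9.3 in microglia-like cells, while Rps27 itself had 1905 ± 269 and 3432 ± 390. Rpl38 was highest in cluster 0, at 2826 ± 218 CPM, against 1312 ± 205 in microglia-like cells. Rps21 and Rps15 took their largest parts of the members' UMIs in astrocyte-like cells, 1.67% and 2.06%, where the total was lowest.

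Microglia-like cells were made of 4 clusters, and the members' share differed between them although no member had shaped the clusters. Cluster 8 had 17.9% ± 2.7 (n = 8), cluster 2, with Il1a, Tnf and Nlrp3 among its leading genes, 13.1% ± 0.91 (n = 8), cluster 5, with Hmox1 and Rgs1, 12.05% ± 0.99 (n = 8), and cluster 9, with the homeostatic genes P2ry12 and P2ry13, 9.02% ± 1.3 (n = 7). Cluster 8 (14.6 to 22.1%) was above cluster 2 (11.9 to 14.4%) and cluster 9 (7.27 to 10.9%) below all of them, with no overlap of these ranges. Median UMIs per cell were 3611 in cluster 8, 6717 in cluster 2, 5739 in cluster 5 and 4000 in cluster 9, so that the highest and the lowest share were both in shallow clusters. Pericyte-like cells likewise held cluster 7 at 9.79% ± 0.46 (n = 8) and cluster 12 at 6.46% ± 0.18 (n = 4).

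**Figure D3:**
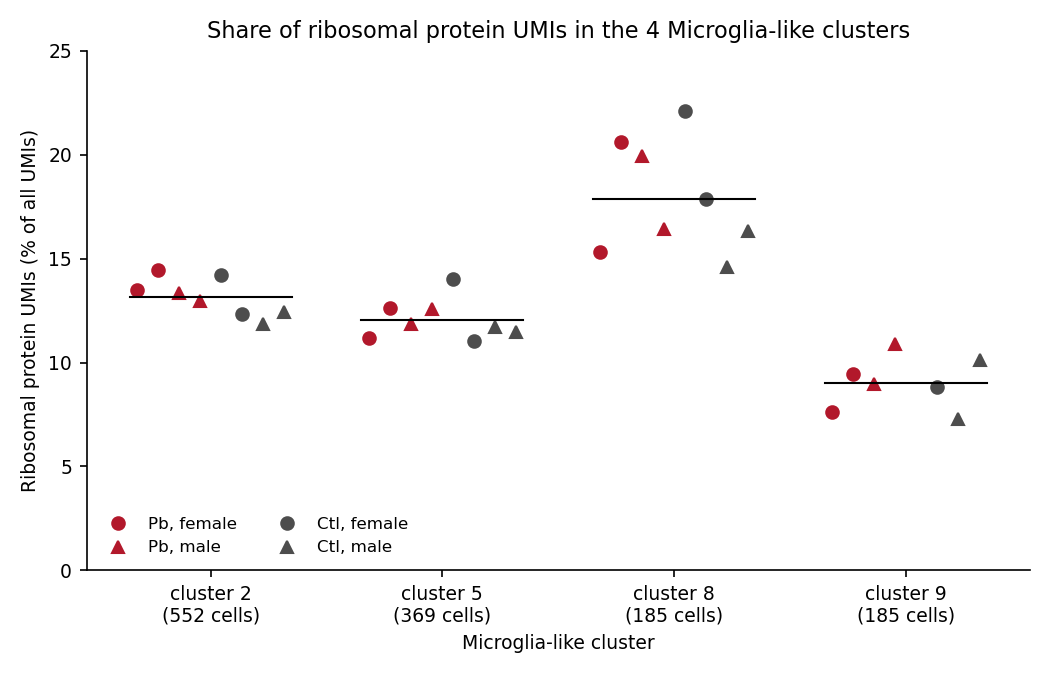
Ribosomal protein UMIs as a percentage of all UMIs (y axis) in each of the 4 microglia-like clusters (x axis); each point is a mouse with 10 or more cells, with colour for exposure and shape for sex, and the bar is the mean. Cluster 8 lies at 14.6 to 22.1%, and cluster 9 at 7.27 to 10.9%, below the others.

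The study's main question was what perinatal Pb exposure leaves in the hippocampus at 5 months. For this, UMIs were summed per mouse and class and tested with edgeR's quasi-likelihood test with sex in the model. No ribosomal protein gene passed an adjusted p of 0.05 in all cells together or in any of the 9 classes with enough cells in at least 3 mice per group. This covers 808 tests of members, of which 7 had an unadjusted p under 0.05, against 4.41% of the tests of all genes in these fits. DESeq2 and limma-voom called 0 members as well, with 2 and 10 tests at an unadjusted p under 0.05. The shares over all genes given here are from edgeR only, so that the DESeq2 and limma-voom counts cannot be called few or many. Over all genes the share called was 0% in 9 of these fits and 0.0168% in cluster 4. The members' share of UMIs also overlapped between the groups in each class tested.

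In all cells together the share was 9.59% ± 0.50 in Pb and 9.57% ± 0.70 in Ctl mice (n = 4 each). In such a sum, a different mix of cells and a different level per cell cannot be told apart. Astrocyte-like cells had 4.89% ± 0.49 in Pb (F1, M1 and M2) against 4.86% ± 0.62 in Ctl mice (F1, F2 and M2, n = 3 each), so that sex was not balanced there. Microglia-like cells had 12.5, 14.7, 13.3 and 12.8% in Pb F1, F2, M1 and M2 and 15.2, 12.1, 11.0 and 11.9% in the Ctl mice in the same order. Their means differed by 0.77 percentage points, and with a mouse left out by 0.26 (without Ctl M1) to 1.66 (without Ctl F1), with 0.30 without Pb F2.

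Median log2 fold changes of the members (Pb against Ctl) lay between -0.12 in astrocyte-like and 0.09 in microglia-like cells, with a median standard error of a single gene of 0.11 to 0.23. In microglia-like cells 75 of 81 members were above 0, against 48.4% of all genes tested. With a mouse left out the median there went from 0.02 (without Ctl F2, 53 of 81 above 0) to 0.21 (without Ctl F1, 78 of 81), with 0.16 without Pb F1 and 0.06 without Pb F2. In oligodendrocyte-like cells 59 of 81 were above 0, against 47.6%. In pericyte-like cells 20 of 81 were above 0 (all genes 48.9%), in astrocyte-like cells 25 of 80 (49.4%) and in all cells together 28 of 81 (45.6%). Members share library scaling and move together from mouse to mouse, so that these counts are not independent tests. The 95% confidence interval of the log2 fold change stayed between -1 and 1 for every member tested in each fit except that of astrocyte-like cells, where it did so for 75 of 80.

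**Figure D4:**
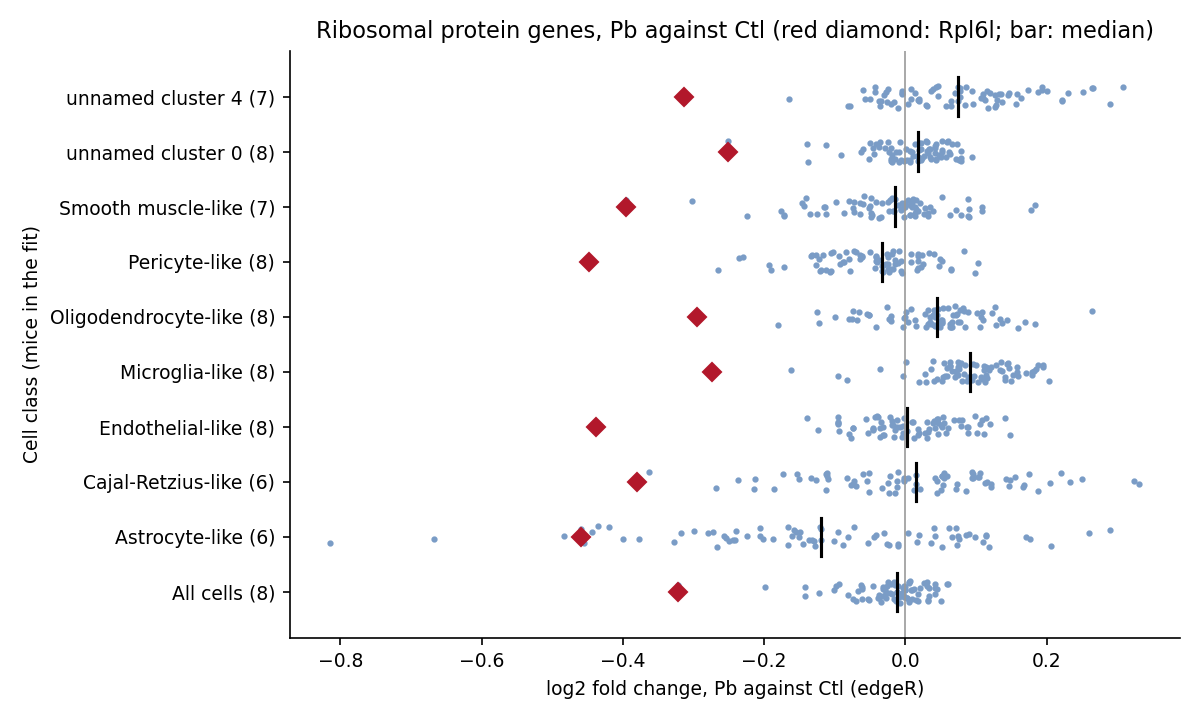
log2 fold change of each ribosomal protein gene tested, Pb against Ctl (x axis, edgeR), in all cells and 9 classes (y axis, with the mice in each fit); each point is a gene, the bar is the median and the red diamond is Rpl6l. Most genes lie close to 0, and Rpl6l has the lowest value in 9 of the 10 fits.

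By role, the 43 genes of the 60S subunit had a median of 0.00 in all cells and 0.09 in microglia-like cells, and the 31 genes of the 40S subunit -0.01 and 0.10. Among the stalk genes in all cells, Rplp0 had 0.06, Rplp1 -0.07 and Rplp2 0.06, and the core genes Rpsa (0.03), Rps6 (0.03), Rpl3 (-0.03), Rpl10 (0.05), Rps4x (-0.03) and Rpl39 (0.05) were as close to 0. Each of these had an adjusted p of 0.999 (edgeR). In microglia-like cells Rpl35 had 1516, 1754, 1534 and 1507 CPM in Pb F1, F2, M1 and M2 and 1592, 1514, 1252 and 1229 in the Ctl mice. Only the Ctl males were below all Pb mice, and the log2 fold change was 0.19 ± 0.13 (SE, adjusted p = 1.00).

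Single genes with an unadjusted p under 0.05 did not recur, apart from Rpl6l. Rpl38, in oligodendrocyte-like cells, had 938, 984, 1060 and 945 CPM in Pb and 881, 756, 725 and 895 CPM in Ctl mice. All Pb mice were above all Ctl mice, as in 1.49% of all genes of this fit, with a log2 fold change of 0.26 ± 0.11 (SE, edgeR adjusted p = 1.00). Rplp2 in cluster 4 had 819 to 892 CPM in 4 Pb and 634 to 853 CPM in 3 Ctl mice (log2 fold change 0.27, edgeR adjusted p = 0.999). In astrocyte-like cells Rps25, a 40S protein used by some viral and cellular entry sites, had 425, 578 and 542 CPM in Pb F1, M1 and M2 and 536, 516 and 807 CPM in Ctl F1, F2 and M2, which overlap (-0.45 ± 0.22, edgeR adjusted p = 0.844).

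Rpl6l had the lowest fold change of the members in 9 of 10 fits and lay below 0 in all 10, from -0.46 to -0.25, none past the threshold. The classes are parts of the same mice, so these are not 10 separate observations. Rpl6l is annotated in GENCODE as a processed pseudogene, a copy of the Rpl6 message (chr10:111125851-111126721, + strand, GRCm38), and its reads are hard to tell from those of Rpl6, so that both counts are uncertain. In endothelial-like cells it had 365, 382, 341 and 368 CPM in Pb F1, F2, M1 and M2 and 462, 486, 541 and 436 CPM in the Ctl mice. All Pb mice were below all Ctl mice, as for 1.41% of all genes of this fit, and the log2 fold change was -0.44 ± 0.13 (SE, unadjusted p = 0.00206, edgeR adjusted p = 0.571). In pericyte-like cells it had 296, 258, 303 and 332 CPM in Pb and 450, 456, 424 and 284 CPM in Ctl mice. There Ctl M2 lay among the Pb mice, with a log2 fold change of -0.45 ± 0.15 (edgeR adjusted p = 1.00).

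Taken as a part of the Rpl6 and Rpl6l UMIs, which removes the level of the class, Rpl6l made up 26.6, 26.5, 23.1 and 27.1% in all cells of Pb F1, F2, M1 and M2, and 32.2, 31.3, 32.7 and 24.8% in the Ctl mice. The Wilson intervals of Ctl F1 (30.6 to 33.9%) and of Pb M2 (26.1 to 28.1%) show counting error to be smaller than this gap. Ctl F1, F2 and M1 were above the other 5 mice in each of the 6 fits that held all 8 mice, so that Ctl M2 was with the Pb mice each time. This split was read from these same values, and the fits are not separate observations, since all cells contains the classes. In astrocyte-like cells, with few UMIs, the order differed: Ctl F2 had the lowest part (7.41%, 4 Rpl6l UMIs) and Ctl M2 the highest (20.4%, 11 Rpl6l UMIs). Rpl6 itself had a log2 fold change of 0.00 in all cells, and was below 0 in 6 of 10 fits. Without Ctl M2 the change of Rpl6l in all cells was -0.43 (adjusted p = 0.295) in place of -0.32 ± 0.15 (edgeR adjusted p = 0.989). What sets Ctl M2 apart was not tested.

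**Figure D5:**
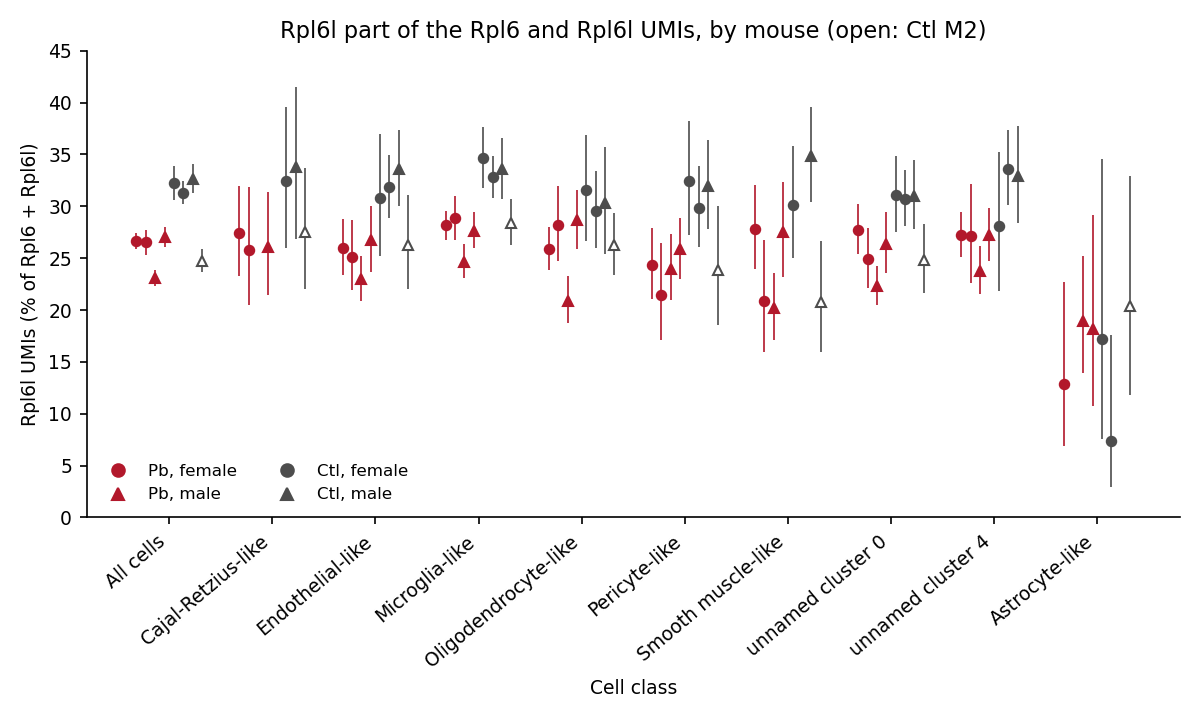
Rpl6l UMIs as a percentage of Rpl6 and Rpl6l UMIs (y axis) in each mouse and class (x axis), with 95% Wilson intervals; colour is exposure, shape is sex and the open symbol is Ctl M2. Ctl F1, F2 and M1 lie above the other mice in all cells (31.3 to 32.7% against 23.1 to 27.1%), with Ctl M2 at 24.8%.

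Among the other paralogs, Rpl22l1 had 362, 350, 336 and 305 CPM in all cells of Pb F1, F2, M1 and M2 and 376, 362, 391 and 395 CPM in the Ctl mice. The highest Pb mouse was just below the lowest Ctl mouse, as for 1.08% of all genes of this fit, and the log2 fold change was -0.20 ± 0.11 (SE, edgeR adjusted p = 0.989). It was below 0 in 9 of 10 fits (-0.48 to 0.15), whereas Rpl22 was below 0 in 3. Rpl41 in all cells had 2694 to 2929 CPM in Pb and 2931 to 3205 CPM in Ctl mice, also without overlap, with -0.14 ± 0.11 (edgeR adjusted p = 0.989). In these sums over all cells, a different mix of cells and a different level per cell cannot be told apart for Rpl22l1 or Rpl41. Choroid plexus-like cells, where Rpl41 was high, gave 1079287 of the 3985848 UMIs of Ctl M2 and 765749 of the 8508064 of Pb F1. Whether this bears on the ranges was not tested. Rps27l in astrocyte-like cells had 54.9 to 106 CPM in Pb and 103 to 186 CPM in Ctl mice (-0.81 ± 0.43, n = 3 each, edgeR adjusted p = 0.844).

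Between the sexes no member passed the threshold either in 808 tests (edgeR). Of these, 11 had an unadjusted p under 0.05, against 4.36% of the tests of all genes. DESeq2 and limma-voom called 0 members too, with 4 and 16 tests under 0.05, for which no share over all genes is given. Over all genes the share called by edgeR was 0.0396% in all cells, 0.0907% in microglia-like, 0.0751% in oligodendrocyte-like, 0.216% in smooth muscle-like, 0.263% in astrocyte-like, 0.172% in endothelial-like, 0.0607% in Cajal-Retzius-like and 0.145% in pericyte-like cells, 0.275% in cluster 0 and 0.0672% in cluster 4. In microglia-like cells 80 of 81 members lay lower in males, with a median log2 fold change (male against female) of -0.23, against 49.8% of all genes below 0. The share of UMIs there was 13.6% ± 1.6 in 4 females and 12.2% ± 1.0 in 4 males, with overlapping ranges (12.1 to 15.2% and 11.0 to 13.3%). Leaving out a mouse moved the median to between -0.12 (without Ctl F1) and -0.31 (without Pb F1).

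Rpl4, a 60S protein that lines the exit tunnel, had the smallest p of the members in microglia-like cells, though not over all classes. In microglia-like cells it had 1182, 1187, 1203 and 1237 CPM in females and 1073, 1048, 992 and 924 in males. All males were below all females, as for 0.972% of all genes of this fit, with -0.32 ± 0.13 (SE, edgeR adjusted p = 0.940). The mix of clusters also differed between the sexes: cluster 9 held 1.67 to 12.2% of the microglia-like cells of females and 15.7 to 29.6% of those of males. Whether this bears on the lower levels in males was not tested. Within clusters the female and male means were 13.6 and 12.7% in cluster 2, 12.2 and 11.9% in cluster 5, 19.0 and 16.8% in cluster 8 and 8.63 and 9.31% in cluster 9. The female mean of cluster 9 leaves out Ctl F1, which had under 10 of these cells.

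Other classes differed in direction. In astrocyte-like cells 66 of 80 members were above 0 in males (all genes 50.1%), with a median of 0.19, and Rps3 and Rps27a had 0.57 and 0.50 (edgeR adjusted p = 0.533 for each). In Cajal-Retzius-like cells the direction was that of microglia-like cells: 69 of 80 were below 0 (all genes 50.8%), with a median of -0.14. The share was 14.01 to 14.53% in 3 females (Pb F1, Pb F2 and Ctl F2) and 12.1 to 13.8% in 3 males (Pb M2, Ctl M1 and Ctl M2). Sex and exposure were not balanced in this share, and Pb F2, Ctl F2 and Ctl M1 had only 10 or 11 cells each. In all cells 78 of 81 were below 0 (all genes 45.1%), with a median of -0.10, and in endothelial-like cells the median was 0.00. The difference in the effect of Pb between sexes was tested by an interaction term in the 6 fits with 2 mice in each of the 4 groups. Of its 486 member tests none passed, and 0 had an unadjusted p under 0.05 (3.19% of the tests of all genes did), with 0% of all genes called except 0.0181% in pericyte-like cells. In microglia-like cells 76 of 81 interaction terms were above 0 (all genes 49.1%), with a median of 0.18 and a median standard error of 0.30.

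The members varied less between mice of a group than other genes of the same range of levels. In endothelial-like cells their median within-group SD was 0.10 on the log2 scale, against 0.20 for 136 other genes, and in microglia-like cells 0.17 against 0.24. In astrocyte-like cells, where the members were lowest, the values were 0.26 and 0.28.

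Among genes that work with the ribosomal proteins, those tested gave 0 calls between Pb and Ctl in every fit (edgeR). The lists held 4 ribosome parts outside the symbol rule, 22 translation factors and other genes with TOP messages, 33 genes of ribosome biogenesis, 24 genes of mTORC1 and TOP control, and 77 mitochondrial ribosomal proteins. All were tested in all cells, but many had too few counts in single classes. In astrocyte-like cells 3 biogenesis genes, 5 control genes and 17 mitochondrial ribosomal proteins were tested. In Cajal-Retzius-like cells these numbers were 5, 3 and 16. In all cells 8 of 22 TOP genes were above 0 (median -0.03), 17 of 33 biogenesis genes (0.00), 10 of 24 control genes (-0.02) and 43 of 77 mitochondrial ribosomal proteins (0.02), against a median of -0.02 over all genes. Hnrnpa1, an RNA-binding protein, had 147 ± 19 CPM in Pb and 213 ± 42 CPM in Ctl endothelial-like cells (log2 fold change -0.53, edgeR adjusted p = 0.825). Mrpl42, of the mitochondrial ribosome, had 108 ± 43 CPM in Pb and 34.6 ± 19.1 CPM in Ctl astrocyte-like cells (1.71, edgeR adjusted p = 0.516). Between the sexes the TOP genes of microglia-like cells lay with the members, 2 of 22 above 0 in males with a median of -0.17, and those of astrocyte-like cells had 14 of 18 above 0 (0.27).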

How the data were processed

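Droplet single-cell RNA sequencing of hippocampal cells of 8 mice was analysed from the deposited table of UMI counts per gene and cell, raw whole-number counts by the authors, with cells named by mouse. Per the submitters' processing notes, Cell Ranger, Seurat and mm10 were used. The members and gene lists were chosen with earlier results of these data known.

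Cells with over 20% mitochondrial UMIs (53, of which 33 Pb) and Scrublet doublet calls (33, 0.628%; 30 of them in the remaining cells, 24 Pb and 6 Ctl) were left out. Scanpy 1.11.5 clustered the rest on 2000 variable genes without members (30 components, 15 neighbours, Leiden resolution 1.0, leidenalg 0.10.2). A cluster was named from marker lists where at least 3 markers were detected and its leading genes did not go against the name. Counts were summed per mouse and class where a mouse had 10 or more cells. Classes with at least 3 mice per group were tested with edgeR 4.0.16 (R 4.3.3; TMM, filterByExpr, robust quasi-likelihood fit with sex and exposure), with Benjamini-Hochberg adjustment over all genes of a fit. Smooth muscle-like cells lacked Ctl F2, cluster 4 Ctl M2, astrocyte-like cells Pb F2 and Ctl M1, and Cajal-Retzius-like cells Pb M1 and Ctl F1. Shares and CPM carry no test. Members named in each fit were the 3 with the smallest p, since none passed, together with the genes of widest and narrowest range over classes, a fixed set of core genes and paralog pairs, and some chosen after their values were seen (Rpl13, Rpl41, Rpl38, Rps21 and Rps15 across classes). Same-numbered mice of the groups were checked for pairing. Alternatives were DESeq2 1.42.0, limma 3.58.1 (voom), other scalings, filters, clusterings and each mouse left out. Leaving out cells with shared barcodes, and adding cluster 4 to the oligodendrocyte-like cells, were chosen after seeing the data.

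On simulated data with the counts of microglia-like cells, edgeR recovered 58 of 91 genes with a log2 change of 1 (63.7%) and 5 of 92 with 0.5 (5.43%) among 7528 genes. The changed genes were drawn from all genes past the filter, so these are not rates for the members. In the real fit the median standard error was 0.14 for the members and 0.24 for all genes.

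The values of some genes are not reported here, and they were left out of the search for mice far from the others of their group.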

Additional observations from a re-analysis of the deposited data

Results flagged for a closer look

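A mouse far from the other 3 of its group, by a gap test over groups of 4, was found for 8 of 132 groups tested (6.06%), where chance gives about 1 in 20. In all cells, Rpl3 had 1021 CPM in Pb F1 against 946 to 957 in the other Pb mice, and Rplp0 730 CPM in Ctl M2 against 979 to 1002. Rpl35 had 1754 CPM in microglia-like cells of Pb F2 (others 1507 to 1534). In oligodendrocyte-like cells the members' share of UMIs was 6.60% in Ctl F1 (6.04% in the others), Rpl5 had 482 CPM in Ctl M2 (338 to 362) and Rps18 792 CPM in Pb F1 (707 to 713). In cluster 0, Rpl13a had 2510 CPM in Pb F1 (2302 to 2332) and Rplp0 707 CPM in Pb F2 (899 to 930).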

How the results depend on the processing

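No member passed the threshold in any of the 294 counts from other settings, for either comparison (smallest adjusted p 0.243). The median log2 fold change of the members, Pb against Ctl, stayed between -0.16 and 0.21. Its sign changed in classes where it was near 0, and also in astrocyte-like cells (-0.16 to 0.03 over settings, against -0.12 above). The median moved by more than the spread between mice in 3 cases. With no filter on low counts it was 0.13 in Cajal-Retzius-like cells and 0.13 in cluster 4, and with a mouse left out it ranged from -0.033 to 0.118 in Cajal-Retzius-like cells (highest without Ctl M2); the cause was not tested. Rpl6l was below 0 in 188 of 189 fits under other settings. The exception was astrocyte-like cells without Ctl M2 (0.06).

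With the replicate block in place of sex, 0 members passed in each of the 10 fits, and the block changed no call. Same-numbered mice did not deviate together in all cells (correlations of -0.66 to 0.03 over 4 pairs). In single classes the correlations went from -0.35 (F1, cluster 0) to 0.18 (M1, cluster 4). Sums over cells also differ with the cell mix, so this check cannot exclude that the numbers pair the mice. Cluster 4 could not be followed with doublets kept, with the mitochondrial limit of 10% or at Leiden resolution 0.5, and has no value there. The precision for single members varied between fits: the median standard error of their log2 fold change was 0.11 in all cells and 0.23 in astrocyte-like cells.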
